A study of Mus musculus with 4 samples.

Results

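The 8 genes described here code for enzymes that make serine, pass its carbon to folate, or make asparagine: Phgdh, Psat1, Psph, Shmt1, Shmt2, Mthfd2, Mthfd1l and Asns. They are given by name, with no threshold on a value, and all 8 were found among the 19465 genes of the deposited tables. They were measured in sections of the primary tumour (PT) and of the lung of 2 BALB/c mice, called mouse A and mouse B in the order of the labels. Each mouse had received 100000 cells of the metastatic mammary carcinoma line 4T1, which seeds the lungs of BALB/c mice, in the mammary fat pad at 8 weeks of age, and tissue was taken after 28 days. Both tissues therefore came from tumour-bearing animals, no uninjected mouse was in the groups, and the sources name no reporter in the injected cells. One 4 µm section of fixed, paraffin-embedded tissue per tissue and mouse was placed on a Visium slide, on which RNA is read with pairs of gene-specific probes in spots that can each hold several cells. With 2 mice, one section stands for each mouse and tissue.

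Serine is made from a glycolytic intermediate in 3 steps. Phgdh, phosphoglycerate dehydrogenase, commits the intermediate to the pathway, Psat1 transfers an amino group from glutamate, and Psph removes the phosphate. Shmt1 in the cytosol and Shmt2 in mitochondria then cleave serine to glycine and load its side-chain carbon on tetrahydrofolate. In mitochondria Mthfd2 oxidises the loaded folate and Mthfd1l releases the carbon as formate, which leaves for purine and thymidylate synthesis. Asns makes asparagine from aspartate and glutamine and is, with Psat1, Shmt2, Mthfd2 and others, known as a target of Atf4, the transcription factor of the amino acid response. The pathway is known for high activity in proliferating cells, and in breast cancer Phgdh is known as a gene that is often amplified or highly expressed.

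The stretches before the start sites of 3 members are shown because 2 sequence elements named in the literature on such genes can be read in them. The 250 bases before each RefSeq start (GRCm38.p6, the build of the deposited data) were searched on both strands for TGATGNAA, the core of the C/EBP-ATF response element that Atf4 binds, for CACGTG, the E-box that Myc and other factors bind, and for CCAAT, the box bound by NF-Y and common before cell cycle genes. No match of one pattern overlapped a match of another in the members' windows, and the 8 genes have 9 such windows because Psat1 has 2 starts. TGATGNAA was found in 1 of the 9 windows, that of Asns, and in 3.45% of all 32851 windows of the reference. CACGTG was found in 0 of the 9 and in 6.02% of all windows, and CCAAT in 5 of the 9 and in 33.8% of all windows. For Asns, 30 bases around the element are given (chr6:7693214-7693243, minus strand), which lie before the RefSeq start but in the first exon of the longer GENCODE transcript, and 150 and 148 bases are given for Psat1 (chr19:15925060-15925209, minus strand) and Mthfd2 (chr6:83317607-83317754, minus strand), which touch no GENCODE exon of their gene. All are written along the gene's own strand, with the element, or its reverse complement, in capitals.
Asns: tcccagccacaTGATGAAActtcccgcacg
Psat1: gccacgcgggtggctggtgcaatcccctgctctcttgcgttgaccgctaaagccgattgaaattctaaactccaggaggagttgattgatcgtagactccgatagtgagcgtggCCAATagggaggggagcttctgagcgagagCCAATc
Mthfd2: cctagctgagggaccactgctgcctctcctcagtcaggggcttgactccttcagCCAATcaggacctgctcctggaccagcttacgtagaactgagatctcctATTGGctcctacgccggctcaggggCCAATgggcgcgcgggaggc
A match is a run of letters and not evidence of binding, and the probes of the assay do not report which start a transcript used.

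The 4 sections covered 9445 spots, and 9339 remained once those with 200 genes or fewer were dropped, 106 in all and each of them from the PT of mouse A. The kept spots held 10890154 to 30240176 unique molecular identifiers (UMIs) per section, with a median of 1820 to 9174.5 UMIs per spot. Levels are CPM, the UMIs of a gene over all UMIs of the section at the usual scale, with exact Poisson 95% intervals where given, which cover counting error only. The tissue labels matched their markers, since 11 alveolar genes such as Sftpc summed to 13848 and 7871 CPM in the 2 lungs (mouse A, then mouse B) and to 76.6 and 111 CPM in the PTs. The lungs differed widely in content. The tumour list (8 genes, led by Mmp3 in both PTs) summed to 131 CPM in the lung of mouse A and to 1261 CPM in that of mouse B, against 4243 and 4833 CPM in the PTs. In the same order, mouse A before mouse B, neutrophil markers summed to 79517 and 32272 CPM in the lungs. The PT of mouse B carried more background: 1178 olfactory and vomeronasal receptor genes, which neither tissue should use, averaged 7.86 CPM there and 0.155 to 0.737 CPM in the other 3 sections. In that PT 95% of the receptor genes lay below 19.04 CPM, and the lowest of the 8 members, Mthfd2, was at 33.0 CPM, while the highest receptor gene, at 86.3 CPM, lay above 5 of the 8.

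The first question was how the levels of these genes compared between primary tumour and lung. The PTs of both mice held the 8 genes at nearly the same levels, whereas the lungs stood far apart. Together the 8 genes took 549.5 and 565.0 CPM in the PTs of mice A and B, 227.6 CPM in the lung of mouse A and 934.1 CPM in the lung of mouse B. For each gene the PT of mouse B was at 0.81 to 1.25 times that of mouse A, and the lung of mouse B at 2.37 (Asns) to 6.05 times (Phgdh) the lung of mouse A. In summed counts of this kind, fewer cells of a type and less RNA per cell cannot be told apart.

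Of the serine synthesis enzymes, Phgdh (chr3:98313170-98339990, mm10) was at 74.4 CPM (69.9 to 79.2) and 87.4 CPM (82.0 to 93.2) in the PTs of mice A and B, and at 10.7 CPM (8.86 to 12.8) and 64.7 CPM (61.8 to 67.6) in their lungs. Both lungs lay below both PTs. Psat1 was at 76.3 and 85.2 CPM in the PTs and at 33.4 and 189 CPM in the lungs, so that one lung lay below and the other above both PTs. Psph was at 42.4 and 36.3 CPM in the PTs and at 20.8 and 66.3 CPM in the lungs, with the same split.

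The serine hydroxymethyltransferases split in the same way. Cytosolic Shmt1 was at 33.0 and 34.0 CPM in the PTs and at 10.97 and 54.1 CPM in the lungs. Mitochondrial Shmt2 was at 122 and 120 CPM in the PTs and at 56.6 CPM (52.3 to 61.2) and 266 CPM (260 to 272) in the lungs. The mitochondrial folate enzymes did not follow a single pattern. Mthfd2 was at 40.7 and 33.0 CPM in the PTs and at 20.2 and 75.2 CPM in the lungs. Mthfd1l was at 119 and 118 CPM in the PTs and at 18.8 CPM (16.3 to 21.5) and 85.9 CPM (82.6 to 89.3) in the lungs, below both PTs in either mouse. Asns was the member with higher CPM in both lungs, at 56.0 and 133 CPM, than in both PTs, at 41.3 and 51.7 CPM.

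**Figure D1:**
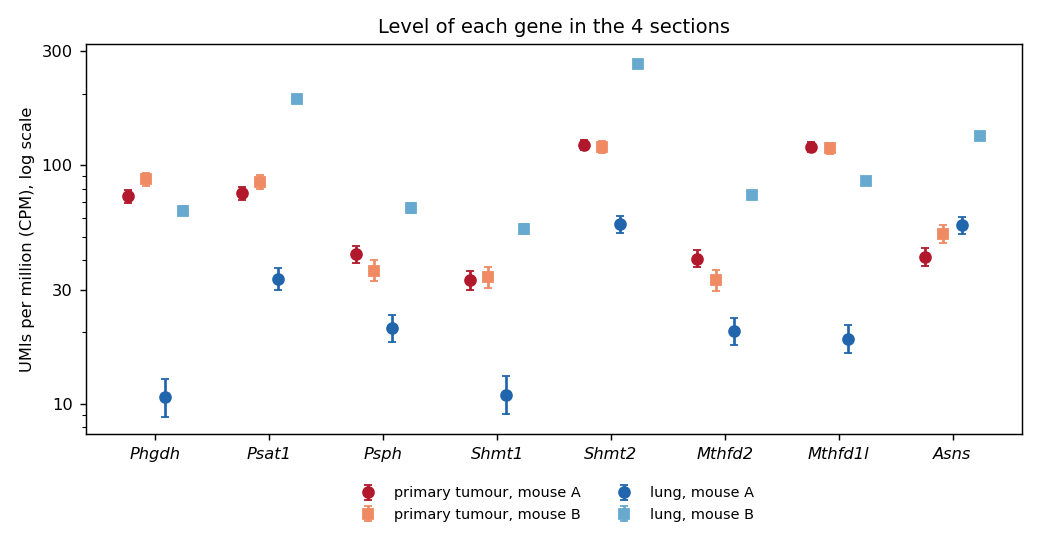
CPM of the 8 genes (log axis) in the 4 sections, red for primary tumour and blue for lung, circles for mouse A and squares for mouse B, with exact Poisson 95% intervals as bars where they exceed the symbol. The red symbols lie close together for each gene, and the blue symbols are 2.37 to 6.05 times apart.

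In the edgeR quasi-likelihood test of lung against PT sections, with n = 2 mice, 0 of the 8 genes passed an adjusted p of 0.05 (Benjamini-Hochberg over all genes tested), where 7.46% of the 15267 genes tested passed. One of the 8, Asns, and 23.2% of all genes had an unadjusted p under 0.05 by edgeR, and 0 passed by DESeq2, where 17.3% of all genes did. Asns had a log2 fold change of 1.27 (SE 0.41, adjusted p = 0.102), Phgdh of -0.89 (SE 0.61, adjusted p = 0.429) and Mthfd1l of -0.97 (SE 0.54, adjusted p = 0.325) by edgeR. The other 5 had values between 0.17 (Shmt1) and 0.67 (Psat1), each smaller than the log2 difference between the 2 lungs. The median over the 8 genes was 0.48, beside -0.005 over all genes tested. Without the lung of mouse A the median of the 8 was 1.20, beside -0.11 over all genes. Without that of mouse B it was -0.55, beside -0.23. With the mouse as a block, 3 of the 8 and 11.9% of all genes passed by edgeR: Asns was higher in lung (adjusted p = 0.036), and Phgdh (adjusted p = 0.036) and Mthfd1l (adjusted p = 0.035) were lower. With the mouse numbers crossed, an alternative chosen after the data were seen, the same 3 and 16.8% of all genes passed.

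Groups did not overlap for 3 genes, Asns with higher CPM in lung and Phgdh and Mthfd1l with lower CPM. Among all genes tested 21.3% had lungs above both PTs and 37.8% had lungs below both. Which lung was used decided the result for most members. Phgdh and Mthfd1l had log2 fold changes of 0.013 and -0.14 without the lung of mouse A, against -0.89 and -0.97 with both lungs. Without the lung of mouse A, 2 of the 8 and 4.61% of all genes passed by edgeR, both members higher in lung: Psat1 (log2 fold change 1.56, adjusted p = 0.038) and Asns (1.85, adjusted p = 0.0028). Without the lung of mouse B, Phgdh had -2.27 and Mthfd1l -2.02. Each of these fits held 1 lung, so that the spread between lungs was not measured.

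The share of each gene in the sum of the 8 had ranges that did not overlap between tissues for 6 genes, 3 with a higher and 3 with a lower share in lung. Phgdh made up 13.5% and 15.5% of the UMIs of the 8 genes in the PTs of mice A and B and 4.7% and 6.92% in their lungs. Mthfd1l made up 21.7% and 20.9% in the PTs and 8.26% and 9.2% in the lungs. Asns went the other way, with 7.52% and 9.15% in the PTs and 24.6% and 14.2% in the lungs. Shmt2, at 22.2% and 21.2% in the PTs and 24.9% and 28.5% in the lungs, and Mthfd2, at 7.41% and 5.83% and at 8.89% and 8.05%, were also higher in both lungs. Shmt1 was lower in both, at 6.01% and 6.01% in the PTs and 4.82% and 5.80% in the lungs. The ranges of Psat1 and Psph overlapped. These shares were not tested, and no such count was made for shares of other genes. By CPM, ranges that did not overlap were common among all genes tested, 21.3% with lungs above both PTs and 37.8% below both.

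At the level of single spots, Shmt2 had a UMI in 36.3% and 26.3% of PT spots and in 26.5% and 71.1% of lung spots of mice A and B, and up to 31 UMIs in a spot in the lung of mouse B. Phgdh had a UMI in 26.9% and 27.8% of PT spots and in 6.13% and 37.8% of lung spots. An average receptor gene had one in 0.393%, 3.5%, 0.134% and 0.168% of spots in the PTs of mice A and B and then the lungs. Any of the 8 was seen in 66.1%, 67.03%, 67.6% and 92.9% of spots in that order of sections. Depth entered these shares. With 1000 UMIs drawn from every spot the values were 42.4%, 41.6%, 19.8% and 49.4%, with 886, 56, 10 and 5 shallower spots left out. Over the spots that remained the shares before thinning were 89.7%, 67.9%, 68.0% and 93.0%.

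The second question was where in the lung the genes were found. All 8 had higher CPM in lung spots high in tumour markers than in spots low in them, in both mice. The high spots were the 25% with the highest share of UMIs on the tumour list, and outlines of metastatic foci on the histology were not used here. The low spots were the lowest 25% in mouse B (695 against 695 spots) and, because more than 25% had no UMI of the list, all 1003 spots without one in mouse A, set against 425 high spots.

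Phgdh was at 6.85 CPM in the low and 20.2 CPM in the high spots of mouse A, from 42 and 55 UMIs, and at 19.5 and 98.3 CPM in mouse B. Psat1 was at 24.96 and 55.5 CPM in mouse A and at 66.5 and 270 CPM in mouse B. Psph was at 18.6 and 27.5 CPM, and at 29.98 and 93.1 CPM. In each mouse the serine synthesis enzymes were higher in the tumour-marker-high spots, yet the high spots of mouse A were near the low spots of mouse B for Phgdh and Psph.

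Shmt1 was at 8.64 CPM in low and 21.3 CPM in high spots of mouse A, and at 22.2 and 77.4 CPM in mouse B. Shmt2 was at 41.9 and 100.6 CPM, and at 89.9 and 397 CPM. Its log2 ratios of high over low were 1.26 and 2.14.

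Mthfd2 was at 15.2 and 31.9 CPM in mouse A, and at 26.0 and 112 CPM in mouse B. Mthfd1l was at 16.1 and 27.2 CPM, and at 29.1 and 130 CPM. Asns was at 51.9 and 66.5 CPM, and at 89.1 and 171 CPM. Of the 8, Asns had the smallest log2 ratio in both mice, 0.36 and 0.94, and Phgdh the largest, 1.56 and 2.33.

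**Figure D2:**
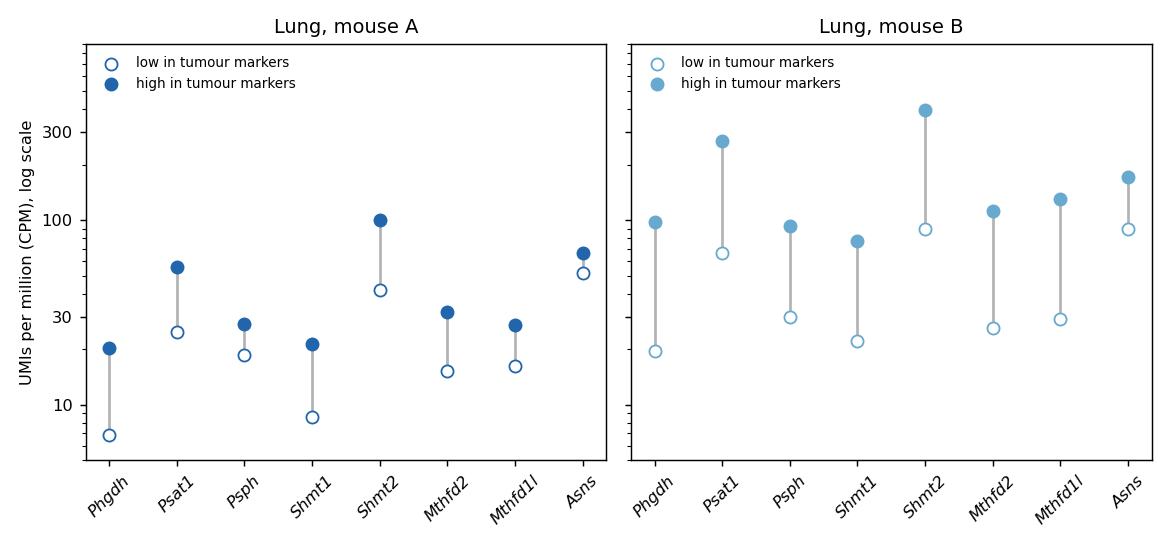
CPM (log axis) of the 8 genes in lung spots low (open circles) and high (filled circles) in tumour markers, one panel per mouse, with a line joining both values of a gene. All filled circles lie above the open ones, and the lines are shortest for Asns, with log2 ratios of 0.36 and 0.94.

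In the edgeR quasi-likelihood test with the mouse as a block, 0 of the 8 passed the adjusted threshold, where 0.632% of the 12807 genes tested passed, all of them higher. Unadjusted p-values were under 0.05 for 7 of the 8, Asns being the other one, and for 19.0% of all genes, and by DESeq2 1 of the 8 passed, Shmt2, beside 1.42% of all genes. DESeq2 gave the other 7 no adjusted p, so that they could not pass by it. Phgdh had a log2 fold change of 1.84 (SE 0.38, adjusted p = 0.0503) by edgeR. Shmt2 followed with 1.58 (SE 0.40, adjusted p = 0.0987), Mthfd2 with 1.48 (SE 0.38, adjusted p = 0.104) and Psat1 with 1.47 (SE 0.37, adjusted p = 0.0986). Asns had 0.52 (SE 0.34, adjusted p = 0.427). The median of the 8 was 1.45 and that of all genes tested 0.015, and higher CPM in both mice was seen for 8 of the 8 and for 47.3% of all genes tested. The call rested on the processing: by edgeR 6 of the 8 passed with no filter on low counts, beside 3.27% of all genes (adjusted p = 0.0059 for Phgdh), and 5 with library totals in place of TMM factors, beside 2.74% (adjusted p = 0.011).

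Other markers moved with the classes. In mouse A the high spots still held lung tissue, with alveolar markers at 12899 CPM against 14279 CPM in the low spots, and neutrophil markers at 64304 against 85772 CPM. In mouse B alveolar markers were at 3224 against 12594 CPM and neutrophil markers at 6755 against 69175 CPM. Proliferation markers (13 genes such as Cdk1 and Top2a) were at 790 against 318 CPM in mouse A and at 2505 against 623 CPM in mouse B, and macrophage markers at 773 against 473 and 1474 against 626 CPM. Fibroblast markers were at 1285 against 720 CPM in mouse A and at 2148 against 1215 CPM in mouse B. Endothelial markers were at 1990 against 2360 CPM and at 547 against 1755 CPM. The median depth was 5561 against 6033 UMIs in mouse A and 16743 against 6879 UMIs in mouse B. The part of each of these in the difference was not tested.

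The genes were also followed over tiles of the slide, blocks of neighbouring spots with at least 10 spots each. There were 76 and 73 tiles in the PTs of mice A and B, and 53 and 92 in their lungs. Summed CPM of the 8 ran from 115 to 520 in the lung of mouse A and from 230 to 1766 in the lung of mouse B, where the richest tile held 2310 CPM of neutrophil markers and the poorest 73708. In the lung of mouse A and the PT of mouse B the tile richest in the 8 genes was also the tile richest in proliferation markers, at 1658 and 1799 CPM. In the lung of mouse B the richest tile held 2354 CPM of these markers, where the highest tile held 3114, and in the PT of mouse A 729 CPM, below the median tile of 1102.

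**Figure D3:**
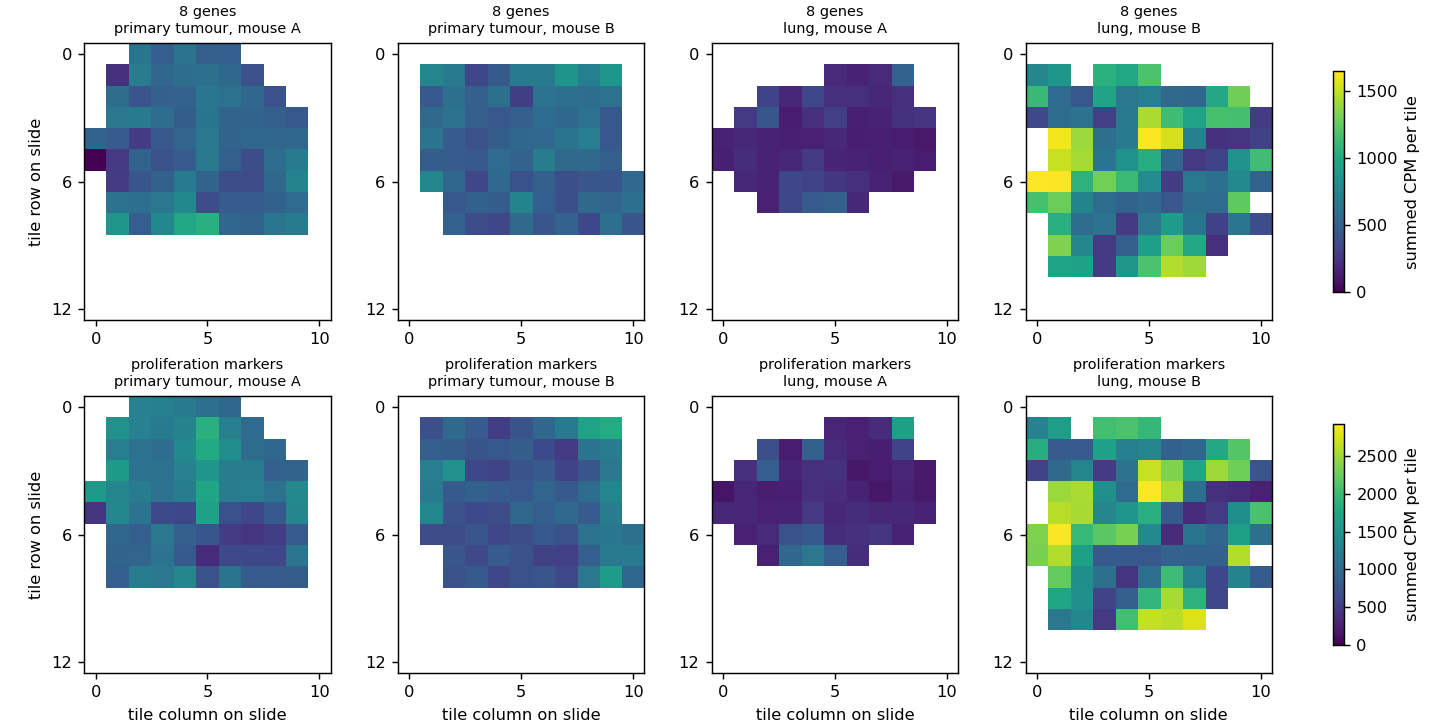
Summed CPM per tile of the 8 genes (top row) and of the proliferation markers (bottom row) at the tile's row and column on the slide, one column of panels per section, with one colour scale per row. Bright tiles of the lung of mouse B lie at the same places in both rows, with up to 1766 CPM for the 8 genes, and the lung of mouse A is dark but for a few tiles with up to 520 CPM.

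Spearman correlations over tiles are given as a description, since tiles of a section share a library, and depth and neighbouring spots link them. In the lung of mouse B all 28 pairs of members had a positive rho, with a median of 0.77 over 92 tiles, and in the lung of mouse A all 28 did, with a median of 0.27 over 53 tiles. In the PTs of mice A and B the medians were 0.098 and 0.049, and 20 and 15 of the 28 pairs were above 0. PT tiles were shallower, with a median of 127028 and 66271 UMIs per tile against 223983 and 286432 in the lungs. The part of depth and of tissue content in these values was not tested, and no median over pairs of other genes was taken for comparison. Psat1 and Shmt2 were the pair with the highest mean, at 0.19 and 0.28 in the PTs and 0.68 and 0.93 in the lungs.

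The summed level of the 8 followed the proliferation markers in the lungs (rho 0.67 in mouse A and 0.96 in mouse B) and less closely in the PTs (0.28 and 0.21). With tumour markers the rho was 0.77 and 0.89 in the lungs, and with neutrophil markers -0.69 and -0.92. Macrophage markers were also positive, at 0.76 and 0.81 in the lungs, as were fibroblast markers, at 0.52 and 0.40. Endothelial markers were negative there, at -0.38 and -0.87. The list of 20 Atf4 targets and partners (Atf4, Trib3, Chac1 and others, 19 of them measured) had a rho of 0.24 and 0.26 with the 8 genes in the lungs, and of -0.02 and -0.32 in the PTs. The 12 aminoacyl-tRNA synthetases of the same response, listed apart, had 0.73 and 0.96 in the lungs and 0.26 and 0.10 in the PTs. Asns alone had 0.42 with the Atf4 list in the lung of mouse B and -0.01 in that of mouse A.

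In the 5% of lung spots highest in proliferation markers the 8 genes summed to 606 CPM in mouse A (85 spots) and 1558 CPM in mouse B (139 spots). In the 5% highest in tumour markers they summed to 510 and 1380 CPM, and in the 5% highest in neutrophil markers to 183 and 253 CPM. In both lungs the proliferation-rich spots therefore held more of these UMIs than the neutrophil-rich spots, at 2.66 and 1.67 times the level of the whole section. Phgdh was at 44.4 CPM in the proliferation-rich and 3.46 CPM in the neutrophil-rich lung spots of mouse A, the latter being 2 UMIs.

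Among 3089 genes with at least 50 CPM in every section, the 3 most like each member were named by the mean rho over the 4 sections. Psat1 was most like Hist1h3c (mean rho 0.54), a histone gene of the S phase, Mbd3 (0.53), of the NuRD complex, and Cdk1 (0.53), the kinase that drives mitosis. Shmt2 was most like Erh (0.62), Pabpc1 (0.59), the poly(A)-binding protein, and Hspd1 (0.59), the mitochondrial chaperonin. Mthfd1l was most like Sept11 (0.53), Gpc1 (0.53) and Pabpc1 (0.53).

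Phgdh was most like Hist2h2ac (0.47), Anp32b (0.46) and Ncl (0.43), which codes for nucleolin. Psph was most like Nudc (0.47), C1qbp (0.43) and Cct3 (0.42), and Shmt1 like Ccna2 (0.40), the S phase and mitotic cyclin, Eif3g (0.40) and Cfdp1 (0.40). Mthfd2 was most like Impdh2 (0.39), which makes the guanine nucleotide precursor, Hist1h1e (0.39) and Eif3g (0.39). Asns was most like Tomm20 (0.39), Ccna2 (0.39) and Cinp (0.38). The means were carried by the lung of mouse B, where rho was 0.68 to 0.93 for each gene named, against values down to -0.02 in the PT of mouse B (Mthfd2 with Eif3g).

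The third question was whether tumour-marker-high spots of the lung differed from those of the primary tumour, so that each tissue was represented by its spots richest in tumour markers. For 6 of the 8 genes the direction was opposite in the 2 mice. Shmt2 was at 136 CPM in the PT and 100.6 CPM in the lung spots of mouse A, and at 125 and 397 CPM in mouse B. Psat1 was at 85.7 and 55.5 CPM, and at 86.8 and 270 CPM. Phgdh was at 84.3 and 20.2 CPM, and at 72.9 and 98.3 CPM. Psph, Shmt1 and Mthfd2 were likewise lower in the lung spots of mouse A and higher in those of mouse B.

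Asns had higher CPM in the lung spots of both mice, 66.5 against 47.8 CPM in mouse A and 171 against 58.3 CPM in mouse B. Mthfd1l had lower CPM in both, 27.2 against 121 CPM and 130 against 134 CPM, the latter a log2 ratio of -0.05. Of all genes tested, 27.9% were higher and 26.8% lower in the lung spots of both mice. Tumour markers still differed within this pairing, at 432 CPM in the lung spots against 6264 CPM in the PT spots of mouse A and at 2227 against 6853 CPM in mouse B, as did alveolar markers, at 12899 against 74.9 CPM and 3224 against 80.3 CPM. Neutrophil markers were at 64304 CPM in the lung spots against 2249 CPM in the PT spots of mouse A and at 6755 against 8019 CPM in mouse B, and proliferation markers at 790 against 1230 CPM and at 2505 against 1081 CPM. The part of this tissue content in the differences was not tested.

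By edgeR 0 of the 8 genes and 0 of 12750 genes (0%) passed, with 0 of the 8 and 1562 of all (12.3%) at an unadjusted p under 0.05, and by DESeq2 0 of the 8 and 754 of all passed. Asns had a log2 fold change of 1.12 (SE 0.46, adjusted p = 0.417), Shmt2 of 0.88 (SE 0.61, adjusted p = 0.586) and Phgdh of -0.45 (SE 0.67, adjusted p = 0.813) by edgeR. Here too the lung used decided the result. Without the lung of mouse A the median log2 fold change of the 8 was 1.43, beside -0.06 over all genes, with 1.77 for Asns, 1.72 for Psat1 and 1.68 for Shmt2. Without the lung of mouse B that median was -0.43, beside -0.17 over all genes, with -1.81 for Phgdh and -2.08 for Mthfd1l. Each of these fits held 1 lung, so that the spread between lungs was not measured.

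Within the primary tumour the levels were compared between spots high and low in hypoxia markers (11 genes such as Car9 and Slc2a1, induced at low oxygen), the highest and lowest 25% of spots. Shmt1 was at 40.1 CPM in low and 26.6 CPM in high spots of mouse A, and at 60.5 and 26.4 CPM in mouse B. Phgdh was at 94.0 and 63.9 CPM in mouse A, and at 145 and 68.5 CPM in mouse B. Psat1 was at 93.2 and 56.1 CPM, and at 101 and 70.7 CPM. Both mice had less of these 3 in the hypoxia-marker-high spots.

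Mthfd2 was at 44.9 and 37.3 CPM in mouse A, and at 42.8 and 24.0 CPM in mouse B, and Shmt2 at 139 and 115 CPM, and at 125 and 108 CPM. Mthfd1l went the other way, at 113 and 135 CPM in mouse A and at 92.2 and 129 CPM in mouse B. Psph (52.4 and 34.4 CPM, and 35.4 and 38.1 CPM) and Asns (37.9 and 44.6 CPM, and 47.9 and 45.7 CPM) differed in direction between the mice.

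By edgeR with the mouse as a block, 0 of the 8 passed, where 0.559% of 14312 genes did. Unadjusted p-values were under 0.05 for 6.58% of all genes and for 2 of the 8, Shmt1 with a log2 fold change of -0.77 (SE 0.24, adjusted p = 0.121) and Phgdh with -0.69 (SE 0.27, adjusted p = 0.406) by edgeR. DESeq2 gave an adjusted p for 2 of the 8, Shmt2 and Mthfd1l, and neither passed. Lower CPM in both mice was seen for 5 of the 8 and for 37.8% of all genes tested, and higher CPM for 1 of the 8 and 15.1%. With library totals in place of TMM factors 3 of the 8 and 1.66% of all genes passed by edgeR, the 3 as lower, Phgdh (adjusted p = 0.00019), Shmt1 (0.0078) and Psat1 (0.019). The median of all genes tested was -0.13 on the log2 scale, beside -0.28 for the 8.

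In mouse B the low spots also carried more background, with the mean receptor gene at 18.3 CPM against 4.54 CPM in the high spots, and were shallower, with medians of 1435.5 against 2479 UMIs. In mouse A the mean receptor gene was at 0.654 CPM in the low and 1.16 CPM in the high spots, and the median depth was 696 against 2095 UMIs. Tumour markers were at 2934 CPM in the low and 5286 CPM in the high spots of mouse B, and at 3908 and 4392 CPM in mouse A. Macrophage markers were at 2759 and 1615 CPM in mouse A and at 473 and 522 CPM in mouse B. Endothelial markers were at 350 and 242 CPM in mouse A and at 271 and 151 CPM in mouse B. Neutrophil markers were at 1779 and 3608 CPM in mouse A and at 10700 and 9010 CPM in mouse B. Proliferation markers were at 1476 CPM in the low and 925 CPM in the high spots of mouse A and at 1219 and 1014 CPM in mouse B. The part of these in the differences was not tested. Levels also varied with depth. From the shallowest to the deepest 25% of the spots of the PT of mouse B Phgdh went from 173 over 137 and 96.1 to 72.3 CPM, while the mean receptor gene went from 29.0 to 2.42 CPM. Its ratio of shallowest over deepest, 2.40, was above that of 98.7% of the 6530 genes with at least 30 CPM there, whose median ratio was 0.793. In the PT of mouse A Phgdh went from 110 to 72.0 CPM, a ratio above that of 92.1% of genes. Asns had the highest ratio of the 8 there, 2.002, from 76.3 to 38.1 CPM, above that of 98.9% of genes, and a ratio of 1.02 in the PT of mouse B. In UMIs per spot Phgdh was nearly level over the 3 shallower depth classes of the PT of mouse B, at 0.206, 0.216 and 0.224, and at 0.96 in the deepest.

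**Figure D4:**
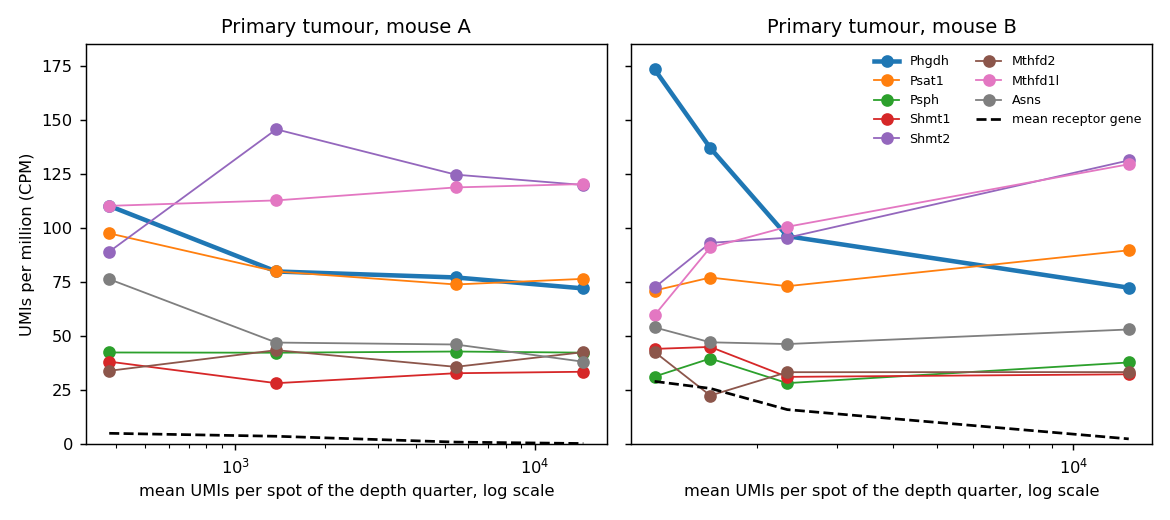
CPM of each of the 8 genes and of the mean receptor gene (dashed) against mean UMIs per spot (log axis) in 4 classes of primary tumour spots, each 25% of the spots by depth, one panel per mouse. Phgdh (thick line) goes from 173 to 72.3 CPM in mouse B, the dashed line from 29.0 to 2.42 CPM, and Mthfd1l goes from 59.6 to 129 CPM.

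Over the 73 tiles of the PT of mouse B Phgdh had a rho of 0.68 with the summed receptor genes, -0.60 with tumour markers, -0.62 with hypoxia markers and -0.37 with Mthfd1l. In the PT of mouse A the rho of Phgdh with the receptor genes was 0.079. Among spots of at least 3000 UMIs, a limit chosen after the data were seen, the mean receptor gene was at 3.06 CPM in the hypoxia-low and 2.02 CPM in the hypoxia-high spots of mouse B. There Phgdh was at 88.7 and 62.7 CPM, its log2 fold change over both mice was -0.34 (SE 0.12, adjusted p = 0.238 by edgeR), and 0 of the 8 passed. In the same deep spots Psat1 had -0.63 (SE 0.12, adjusted p = 0.0623 by edgeR), Shmt1 -0.59, Mthfd2 -0.65, Shmt2 -0.31, Psph -0.23 and Asns -0.09, and Mthfd1l had 0.29 (SE 0.11, adjusted p = 0.250 by edgeR).

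The last comparison was of primary tumour spots high and low in proliferation markers. Of the 8 genes, 3 passed the test. Psat1 was at 65.2 CPM in low and 95.9 CPM in high spots of mouse A, and at 72.4 and 101 CPM in mouse B. Shmt1 was at 30.6 and 41.2 CPM, and at 26.7 and 44.5 CPM. Mthfd1l was at 89.6 and 117 CPM, and at 94.6 and 140 CPM. Each was higher in the high spots of both mice.

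These 3 of the 8 passed by edgeR with the mouse as a block, all higher, where 5.21% of 16499 genes passed and 3.65% passed as higher. Shmt1 had a log2 fold change of 0.80 (SE 0.25, adjusted p = 0.0323), Psat1 of 0.68 (SE 0.21, adjusted p = 0.0276) and Mthfd1l of 0.66 (SE 0.20, adjusted p = 0.0263) by edgeR. These estimates, made with TMM factors, lay above the log2 ratios of summed CPM in either mouse. Those ratios were 0.43 and 0.74 for Shmt1, 0.56 and 0.49 for Psat1 and 0.39 and 0.56 for Mthfd1l in mice A and B. With library totals the median of the 8 was 0.27, beside -0.26 for all genes. Shmt2 had 0.52 (SE 0.20, adjusted p = 0.103), at 116 and 130 CPM in mouse A and at 102 and 142 CPM in mouse B. Psph had 0.34 (SE 0.23, adjusted p = 0.454) by edgeR and was also higher in both mice. Phgdh (83.5 and 88.5 CPM, and 111 and 97.0 CPM), Mthfd2 (30.6 and 45.8 CPM, and 36.2 and 36.1 CPM) and Asns (55.0 and 42.9 CPM, and 44.4 and 54.0 CPM) differed in direction between the mice. The median of the 8 was 0.44 and that of all genes tested -0.076 on the log2 scale, and higher CPM in both mice was seen for 5 of the 8 and for 21.0% of all genes tested.

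**Figure D5:**
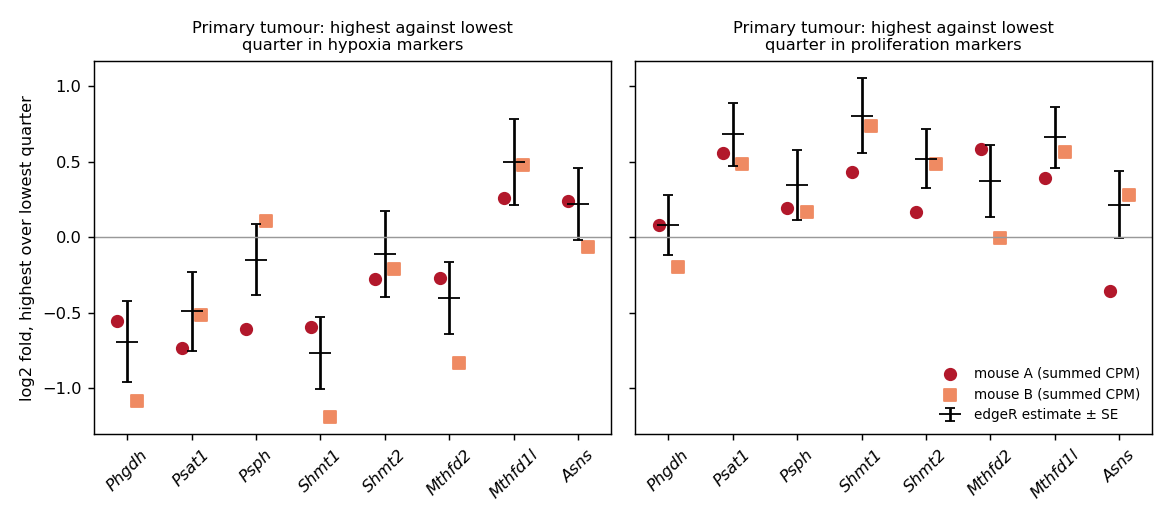
Log2 fold of high over low spots in the primary tumour for hypoxia markers (left) and proliferation markers (right), as ratios of summed CPM in mouse A (circles) and mouse B (squares) and as the edgeR estimate with its SE (black). On the left Shmt1, Phgdh and Psat1 lie below 0 and Mthfd1l above it in both mice, and on the right Psat1, Shmt1 and Mthfd1l lie above 0 in both, with estimates of 0.66 to 0.80.

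The low spots of mouse A were all 656 spots without a UMI of the list. They were shallow, with a median of 460.5 UMIs against 1637 UMIs in the high spots, and Shmt1 rested on 15 UMIs there. The mean receptor gene was at 4.00 CPM in the low and 0.608 CPM in the high spots of mouse A and at 13.6 and 6.54 CPM in mouse B, and macrophage markers were at 1416 and 2547 CPM and at 361 and 582 CPM. Neutrophil markers went the other way, at 6208 and 2119 CPM in mouse A and at 18688 and 7172 CPM in mouse B. Tumour markers were at 3601 CPM in the low and 4448 CPM in the high spots of mouse A and at 4571 and 4920 CPM in mouse B. The part of these in the differences was not tested. The 3 calls depended on the processing. With no filter on low counts the same 3 passed, beside 3.98% of all genes, whereas by edgeR 0 of the 8 passed without the block (0.0606% of all genes), with library totals (4.72%), in the outer 10% of spots (5.55%) or in spots of at least 1000 UMIs (0.817%). Only the high side of the outer 10% held 10% of spots, 249 in mouse A and 238 in mouse B. Its low side was all spots without a UMI of the list, 656 in mouse A, as in the main test, and 482 in mouse B. Without the block the log2 fold changes were 0.69 for Psat1, 0.78 for Shmt1 and 0.64 for Mthfd1l. DESeq2 gave none of the 3 an adjusted p. In spots of at least 3000 UMIs, the limit chosen after the data were seen, 2 of the 8 and 2.57% of all genes passed by edgeR, Shmt1 (log2 fold change 1.01, adjusted p = 0.0237) and Psat1 (0.64, adjusted p = 0.0295), and Mthfd1l had 0.16 (adjusted p = 0.686).

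The genes around the 8 were taken from 6 lists of the folate cycle, glycine cleavage and serine use, transport and breakdown of serine and asparagine, purine synthesis, the Atf4 response and its aminoacyl-tRNA synthetases. In the proliferation comparison 2 of 13 tested folate genes passed by edgeR, both higher in high spots, beside the 5.21% of all genes. Without the mouse as a block 0 genes of the 6 lists passed in this comparison, beside 0.0606% of all genes. Tyms, thymidylate synthase, was at 46.8 and 84.5 CPM in the low and high spots of mouse A and at 38.1 and 67.6 CPM in mouse B (log2 fold change 1.00, adjusted p = 0.00066). Mthfd1, the cytosolic folate enzyme that takes up formate, was at 28.5 and 44.9 CPM, and at 38.1 and 54.7 CPM (0.74, adjusted p = 0.0402). Of 7 transport genes 1 passed, Slc1a5, a carrier of glutamine and other neutral amino acids, at 67.2 and 94.5 CPM, and at 29.8 and 64.5 CPM (1.00, adjusted p = 0.00069).

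Of 18 genes of the Atf4 list 1 was higher and 1 lower by edgeR in that comparison. The higher was Slc7a5, a carrier of large neutral amino acids (0.65, adjusted p = 0.0285). The lower was Atf5, a transcription factor of the same response, at 61.1 and 24.0 CPM in low and high spots of mouse A and at 45.7 and 29.6 CPM in mouse B (-0.74, adjusted p = 0.0376). Of the 11 purine synthesis genes, 8 glycine and serine use genes and 12 synthetases tested, 0 passed, with 6, 2 and 8 of them higher in both mice, beside the 21.0% of all genes.

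Between lung and PT sections 1 of 15 folate genes passed by edgeR, beside the 7.46% of all genes, Mthfd2l, the close relative of Mthfd2, at 48.7 and 52.4 CPM in the PTs and 8.81 and 19.2 CPM in the lungs (log2 fold change -1.59, adjusted p = 0.0479). Of 19 Atf4 list genes 2 passed, in opposite directions. Vldlr, a lipoprotein receptor, was at 4.14 and 8.36 CPM in the PTs and 32.8 and 20.0 CPM in the lungs (2.43, adjusted p = 0.029), and Atf3, a stress-induced transcription factor, at 111 and 180 CPM in the PTs and 40.5 and 38.4 CPM in the lungs (-1.57, adjusted p = 0.0371). With the mouse as a block, where 11.9% of all genes passed, 1 gene of the Atf4 list passed as higher and 2 as lower, 1 folate gene as lower, and 1 gene each of the transport and purine lists as higher. In the lung spots by tumour markers 0 genes of the 6 lists passed. Higher in both mice were 10 of 13 folate genes, 9 of 11 purine genes and 11 of 12 synthetases, beside the 47.3% of all genes. In the remaining lists 4 of 9 glycine and serine use genes, 5 of 9 transport genes and 10 of 19 Atf4 list genes were. In the hypoxia comparison 0 genes of the lists passed. Lower in both mice were 9 of 12 folate genes, 4 of 8 glycine and serine use genes and 3 of 7 transport genes. So were 1 of 11 purine genes, 5 of 18 Atf4 list genes and 4 of 12 synthetases, beside the 37.8% of all genes. In the same order 0, 2, 1, 4, 8 and 3 were higher in both mice, beside 15.1% of all genes.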

How the data were processed

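Unnormalized UMI counts for every gene in every spot of 2 primary tumour and 2 lung sections were deposited, written by Space Ranger 2.0.0 on mm10 per the submitters' processing notes. Spots with more than 200 genes were kept, a median of 1820 to 9174.5 UMIs per spot by section, and no doublet caller was run. Of the barcodes, which mark slide positions, 1341 occur in all 4 sections. The 8 members, marker lists and pathway lists were chosen with earlier results of these data known. Named besides the members are, from the pathway lists, the genes called with the largest changes, up to 3 each way, and the 3 genes most like each member. Slc7a5, outside that rule, was named after its values were seen.

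Counts were summed per section and spot class and tested with edgeR 4.0.16 under R 4.3.3 (filterByExpr, TMM, quasi-likelihood test, Benjamini-Hochberg threshold 0.05), checked on simulated data. SE is the log2 fold change over the root of F. Within a section the mouse was a block. Between tissues it was not, and the block was an alternative. The numbers pair sections of one animal per the labels. Deviations from group means of same-numbered samples correlated at -0.29 for sections, 0.51, -0.34, 0.85 and 0.72 for the lung, lung against PT, hypoxia and proliferation spots. Classes are the outer 25% of spots by share of UMIs on a list, ties included. Markers and tests come from the same spots, and n = 2 mice throughout. Tiles span 6 array rows and 12 columns. DESeq2 1.42.0 and the other alternatives are in the closing section. Markers off the probe panel, such as Sftpb, and Mthfs, Folr2, Gcsh and Ddit3 of the pathway lists, were not used here.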

Additional observations from a re-analysis of the deposited data

How the results depend on the processing

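With 2 mice few of the 8 members were called in the main tests, calls moved with the processing, and causes were not tested. Lung against PT sections gave 1139 called genes and 0 of the 8 members. The counts were 1817 and 3 with the replicate block, 2644 genes by DESeq2 (54.3% of them higher, against 84.5%), 2022 and 1 with no filter on low counts, 328 genes with library totals and 681 in spots of at least 1000 UMIs. Leaving out each section gave 883 to 6604 genes and 0 to 2 members, where the lone section left in a group is assumed to vary like the others. Shmt1 turned to -0.15 with the block, to -0.14 with the crossed one described below and to -0.0515 with library totals. Leaving out each section, Phgdh ran from -2.27 (without the lung of mouse B) to 0.0131 (without that of mouse A). Between the same fits Mthfd1l ran from -2.02 to -0.14 and Asns from 0.92 to 1.85. Psat1 ran from -0.63 to 1.56, Psph from -0.30 to 1.07, Shmt1 from -0.97 to 1.02, Shmt2 from -0.46 to 1.46 and Mthfd2 from -0.24 to 1.34, all lowest without the lung of mouse B and highest without that of mouse A.

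In the lung, tumour-marker-high against low spots gave 81 genes and 0 members. There were 0 genes with no replicate block, 182 and 1 by DESeq2, 613 and 6 with no filter, 351 and 5 with library totals, 118 and 1 in spots of at least 1000 UMIs and 0 genes in the outer 10% of spots. In mouse A the low side of the outer 10% was again all 1003 spots without a UMI of the tumour list. The higher share of calls was 100% in the main test, 32.4% by DESeq2 and 59.4% with no filter. Tumour-marker-high lung against PT spots gave 0 genes and 0 members, 13 genes with the replicate block, 754 by DESeq2, 1287 with no filter and 10 against all PT spots, and leaving out each section gave 0 to 6 members and 3 to 4782 genes. From without the lung of mouse B to without that of mouse A, Phgdh ran from -1.81 to 0.40, Mthfd1l from -2.08 to 0.10, Psat1 from -0.49 to 1.72, Psph from -0.39 to 1.30, Shmt1 from -0.47 to 1.32, Shmt2 from -0.23 to 1.68 and Mthfd2 from -0.19 to 1.55. Crossing the pairing of the mouse numbers, tried after the data were seen, gave 2565 genes and 3 members for sections and 620 genes for these spots.

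Hypoxia-marker-high against low PT spots gave 80 genes and 0 members, 0 genes with no replicate block, 35 by DESeq2, 1 with no filter, 40 in spots of at least 1000 UMIs, and 237 with 3 members with library totals, of which 37.6% were higher, against 30% in the main test, 100% by DESeq2, 57.0% in the outer 10% of spots and 82.2% of 107 genes in spots of at least 3000 UMIs. Shmt2 turned to 0.00033 with no filter and Asns to -0.0878 in spots of at least 3000 UMIs. Proliferation-marker-high against low spots gave 859 genes and 3 members, 10 and 0 with no replicate block, 109 and 0 by DESeq2, 0 members and 778 genes with library totals (42.7% of them higher, against 70.1%), 139 and 0 in spots of at least 1000 UMIs, 547 and 0 in the outer 10% of spots (31.4% higher), and 284 genes in spots of at least 3000 UMIs. Phgdh turned to -0.11 with library totals and -0.22 in the outer 10%, whose low side was all spots without a UMI of the list in both mice. Thinning to 1000 UMIs, with 886, 56, 10 and 5 shallower spots left out, gave shares of spots with any member of 42.4% and 41.6% (PTs) and of 19.8% and 49.4% (lungs), where the same spots before thinning had 89.7%, 67.9%, 68.0% and 93.0%. DESeq2 gave no adjusted p for 7, 6 and 7 of the 8 members in the lung, hypoxia and proliferation spots, and these 20 values, all with the direction of the main test, are in no count of lost calls. Of the members' other single values, 277 kept direction and side of the threshold or, with no test, stayed within the spread between mice, 35 passed the threshold, 13 lost it, 20 turned and 19, with no test, moved.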
